A study of Mus musculus with 12 samples.

Results

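Intestinal stem cells (ISC) of aged mice were compared with ISC of young mice over all 15552 genes that had at least 10 counts in total over the 6 ISC libraries, out of 34245 genes counted. The 3 young and 3 aged ISC libraries were taken from a series of 12 libraries, the other 6 being adult enterocytes (AE) of both ages. All mice were male C57BL/6 animals with the Lgr5-GFP reporter, and were about 8 months old in the young and about 27 months old in the aged groups. ISC were the GFP-high, DAPI-negative cells of small intestine crypts, and AE were Epcam-high villus cells without CD31 and CD45. The crypt cells were sorted on GFP, DAPI and scatter alone, without a CD45 gate. Because the reporter marks cells by the activity of the *Lgr5* promoter, the ISC of both ages were defined by that promoter alone, and cells without GFP were not sampled.

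ISC sit at the base of the crypts, between Paneth cells, and divide throughout life to replace the epithelium. Wnt signals and the R-spondin receptor Lgr5 keep them in the stem cell state, and Notch signals between neighbouring cells set the balance of secretory and absorptive daughters. Their daughters leave the crypt as dividing progenitors and mature on the villus into enterocytes, which absorb nutrients, or into goblet, enteroendocrine and tuft cells. Intraepithelial lymphocytes are T cells that lie between these epithelial cells.

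Each library is called here by its age and by the number in its code, young 1, 2 and 3 and aged 1, 3 and 5. Groups were read from the codes that name the columns of counts, because 8 of 12 sample titles pair a code of 1 group with the words of another. The libraries held between 11893817 and 26796461 counts, and the deepest was aged 1. Counts were scaled by TMM factors between 0.962 and 1.04 and are given as CPM, the counts of a gene relative to the scaled total of its library. The 2 markers of the sorted cells were abundant in every ISC library. *Olfm4* stood at 4512 to 7183 CPM and *Lgr5* at 104 to 193 CPM, against 17.6 to 259 CPM and 0.420 to 3.62 CPM in AE. Markers of other blood and connective tissue cells were sparse. The 13 monocyte, macrophage and neutrophil markers together reached 11.5 to 16.3 CPM in young and 12.3 to 27.1 CPM in aged ISC, with 6 of 13 at 0 in every library. The 12 stroma and endothelium markers reached 12 to 18.6 CPM in young and 10.8 to 28 CPM in aged ISC, with 1 at 0, and the 5 B and plasma cell markers with a row of counts reached at most 2.90 CPM in sum.

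The libraries did not separate by age. By a chi-square per degree of freedom on raw counts, the closest library of each of the 6 libraries was 1 of the other age, in 6 of 6 cases. This measure rises with depth and gives most weight to abundant genes. Young 1 was closest to aged 5 (19.9), young 2 to aged 3 (20.6), young 3 to aged 3 (21.6) and aged 1 to young 2 (27.8). Pairs of the same age gave 35.4 to 67.4 and pairs of different age 19.9 to 75.7. Log2 CPM correlated with Pearson coefficients from 0.977 to 0.983 between libraries of the same age and from 0.973 to 0.983 between ages. By this coefficient aged 1 was closest to aged 3, of its own age, at 0.9831 against 0.9818 with young 2. Young 1 and aged 5 also shared the highest summed level of their age of the 13 mitochondrially encoded genes, 34324 and 21739 CPM against 9671 to 17454 CPM in the other 4, and the lowest sums of cytosolic ribosomal protein genes, 32684 and 32498 CPM against 47283 to 58686 CPM. Young 3 and aged 3 held the highest enterocyte marker sums of their ages. What the libraries share in these pairs was not tested.

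No gene was called different between aged and young ISC by edgeR's quasi-likelihood test at an FDR under 0.05: 0 of 15552 genes, or 0%. At an unadjusted P under 0.05, 369 genes were higher in aged ISC (2.37%) and 415 were lower (2.67%). Together these were 5.04% of all genes, near the share of 0.05 that this threshold passes where no gene differs. In 748 genes (4.81%) the 3 aged libraries all lay above the 3 young libraries, and in 651 (4.19%) they all lay below. DESeq2, run on the same counts, called 11 genes higher (0.0708%) and 47 lower (0.302%) of 15540 genes with an adjusted P. Single libraries moved these counts: 203 genes were higher at an unadjusted P under 0.05 without young 2 and 233 without aged 1, and 275 were lower without young 1. The study's methods list 3 animals of each age, and the labels do not tie a library to an animal. These P values set the age difference against a spread between libraries that was estimated with information shared across genes.

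The median log2 fold change over all genes tested was 0.01, and 14211 genes (91.4%) differed by less than 2-fold. For 10206 genes (65.6%) the whole 95% interval of the fold change lay within 2-fold in either direction. That share depended on abundance: it was 0 of 2930 genes under a mean of 1 CPM, 37.6% of genes between 1 and 10 CPM, 93.1% of genes between 10 and 100 CPM and 94.5% of the 2482 genes at 100 CPM or more. Among these last genes, 17 were higher and 49 lower at an unadjusted P under 0.05. Differences over 2-fold were thus not limited by these data in most genes under 10 CPM.

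**Figure D1:**
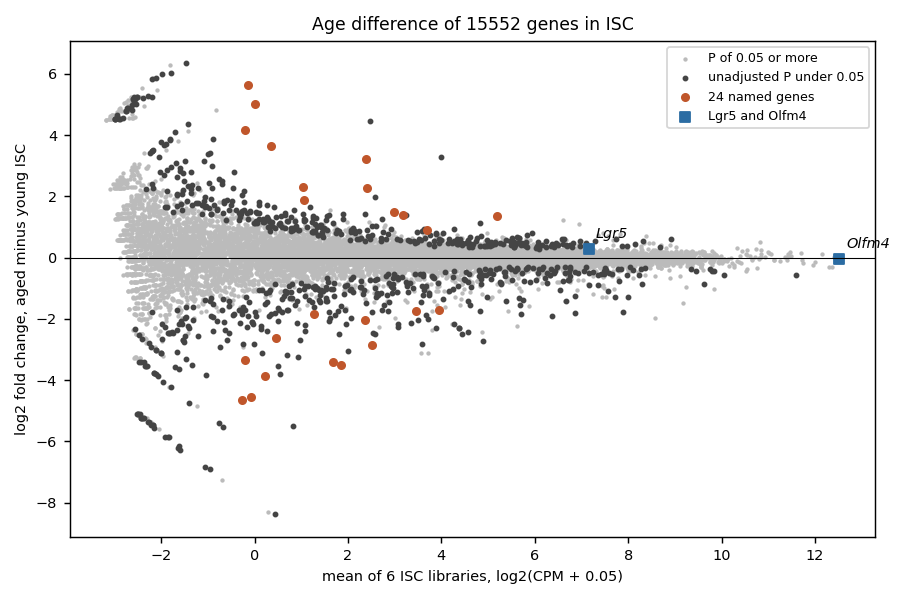
Log2 fold change between aged and young ISC (y axis) against the mean level of the 6 ISC libraries as log2 of CPM + 0.05 (x axis) for 15552 genes. Grey points had an unadjusted P of 0.05 or more, dark points a P under 0.05, orange points are the 24 genes described by library and blue squares are *Lgr5* and *Olfm4*, which lie close to 0 among the abundant genes.

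Stem cell genes were measured well and lay close to equality, in cells that were gated as GFP-high at both ages. The gate selects by the *Lgr5* promoter, so the sort itself limits how far *Lgr5* could differ with age. *Lgr5* encodes an R-spondin receptor, and its GFP reporter was used for the sort (chr10:115450311-115587780, minus strand, GRCm38). It stood at 175, 107 and 104 CPM in young 1, 2 and 3 and at 148, 129 and 193 CPM in aged 1, 3 and 5. The groups overlapped, and the log2 fold change was 0.28 ± 0.23 (SE, n = 3 libraries per age, edgeR FDR 1.00), with a 95% interval from -0.25 to 0.81. *Olfm4*, a secreted glycoprotein marker of crypt base stem cells (chr14:80000302-80021930, plus strand), stood at 6721, 5975 and 5031 CPM in young and 4512, 5491 and 7183 CPM in aged ISC. Its log2 fold change was -0.04, with an interval from -0.55 to 0.46, and it was above 0 without young 1 (0.06) or without aged 1 (0.10). *Ascl2*, a transcription factor that maintains the stem cell state, had a log2 fold change of 0.22 with an interval from -0.21 to 0.66. Of the 17 stem cell genes, 11 were higher and 6 lower, 0 had an unadjusted P under 0.05, and the median log2 fold change was 0.06.

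Among the genes that were higher in aged ISC, the 12 with the smallest P were *Ddr2*, *Extl1*, *P2rx7*, *Epp13*, *Prss33*, *Ccr2*, *Cnpy1*, *Smoc1*, *Dlgap1*, *Lhfpl4*, *Nmnat2* and *Ddo*. They had to have 3 aged libraries above the 3 young ones and a mean of at least 1 CPM at 1 age, so that non-overlap and direction are given by their choice, and 165 genes met this rule. DESeq2, run on the same counts, called 10 of the 12 at an FDR under 0.05, all but *Nmnat2* and *Ddo*. Of all genes with an adjusted P, 0.0708% were called higher. The 12 were chosen by a small P on these counts, so this is a description and no support. The 8 genes *Ddr2*, *Extl1*, *P2rx7*, *Epp13*, *Ccr2*, *Cnpy1*, *Smoc1* and *Ddo* also belong to the 49 genes that the study chose on these samples.

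The gene with the smallest P of all was *Ddr2*, a collagen receptor tyrosine kinase (chr1:169972307-170110762, minus strand). It had 0.746, 1.49 and 0.736 CPM in the young and 8.63, 11.6 and 7.91 CPM in the aged libraries, from 9, 20 and 10 against 236, 163 and 135 counts. The log2 fold change was 3.22 ± 0.35 (SE, n = 3 per age), with an edgeR FDR of 0.123 and a DESeq2 FDR of 1.94e-11. When every gene with at least 1 count was tested, its edgeR FDR was 0.0259. The lowest aged library lay more than 5-fold above the highest young library.

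The chemokine receptor gene *Ccr2* (chr9:124101950-124113557, plus strand), whose product guides monocytes along the chemokine Ccl2, was close to absent in young ISC. It had 0, 1 and 0 counts in the young libraries and 32, 24 and 38 counts in the aged libraries. These correspond to at most 0.0744 CPM in young and to 1.17, 1.71 and 2.23 CPM in aged ISC. The ratio of aged to young counts, corrected for depth, was 62.9, with a 95% counting interval from 11 to 2510 that covers counting error only. The fitted log2 fold change of 5.64 was 7.81 without young 2, when all young libraries are at 0 and the fitted value depends on the prior count. The edgeR FDR was 0.256, the DESeq2 FDR 0.00577 and the edgeR FDR in a fit on all 4 groups of the series 0.0394. Of 13 monocyte, macrophage and neutrophil markers, 4 had enough counts to be tested, with a median log2 fold change of 0.01, 2 higher and 2 lower. All 13 together summed to 11.5 to 16.3 CPM in young and 12.3 to 27.1 CPM in aged ISC. The part of such cells in the *Ccr2* level was not tested.

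*P2rx7*, an ATP-gated ion channel of inflammatory signalling (chr5:122643911-122691432, plus strand), had 1.41, 1.26 and 2.65 CPM in young and 6.77, 9.12 and 10.3 CPM in aged ISC. Its log2 fold change was 2.28 ± 0.34, with an edgeR FDR of 0.256 and a DESeq2 FDR of 7.49e-06. *Extl1*, a glycosyltransferase of the exostosin family that acts in heparan sulfate synthesis (chr4:134356372-134383850, minus strand), was the most abundant of the 12. It stood at 23.9, 15.2 and 22.4 CPM in young and 57.3, 48.1 and 50.7 CPM in aged ISC, with a log2 fold change of 1.34 ± 0.19 with an edgeR FDR of 0.256. All 3 aged libraries held at least 2 times the level of the highest young library. *Cnpy1*, a member of the canopy family of proteins that promotes FGF signalling (chr5:28200819-28245806, minus strand), stood at 5.47, 4.17 and 5.22 CPM in young and 13.5, 10.1 and 15.3 CPM in aged ISC, with a log2 fold change of 1.40 ± 0.24.

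*Epp13* and *Prss33* were at the limit of detection in young ISC. *Epp13* had 2, 0 and 0 counts in young and 65, 29 and 19 counts in aged ISC, a ratio of 37.8 with a counting interval from 10.2 to 316. *Prss33*, a serine protease gene, had 2, 0 and 1 against 30, 16 and 41 counts, a ratio of 19.4 with an interval from 6.42 to 95.9. For both, each aged library held more counts than the 3 young libraries together. Without young 1 the fitted log2 fold change moved from 5.01 to 8.02 for *Epp13* and from 4.18 to 5.10 for *Prss33*. *Lhfpl4*, which encodes a membrane protein of inhibitory synapses, had counts in only 1 young library, with 0, 0 and 0.515 CPM against 2.60, 1.64 and 2.64 CPM, and its fitted log2 fold change of 3.65 was 8.30 without young 3. In all, 5 of the 12 genes, among them these 3, stayed under 1 CPM in all 3 young libraries.

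*Smoc1*, a secreted calcium-binding matrix protein that modulates BMP signals, had 0.497, 0.893 and 0.589 CPM in young and 2.74, 4.34 and 2.99 CPM in aged ISC. *Dlgap1*, a scaffold protein of the postsynaptic density, had 4.89, 4.24 and 3.31 against 12.3, 8.62 and 13.8 CPM. *Nmnat2*, an enzyme of NAD synthesis known from axons, had 0.497, 1.19 and 0.883 against 3.55, 3.77 and 2.23 CPM. The smallest difference of the 12 was that of *Ddo*, the peroxisomal D-aspartate oxidase (chr10:40630011-40681847, plus strand), with 10.1, 7.29 and 9.56 CPM in young and 17.6, 19.2 and 13.3 CPM in aged ISC and a log2 fold change of 0.89 ± 0.22. Its edgeR FDR was 0.688 and its DESeq2 FDR 0.102.

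**Figure D2:**
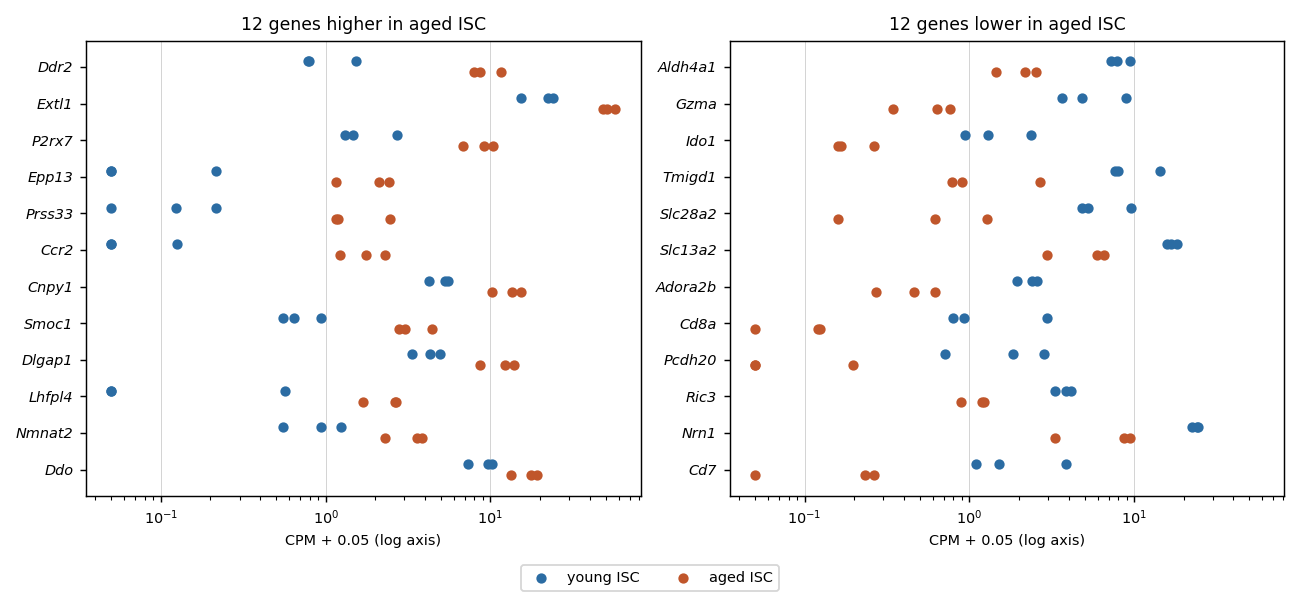
CPM + 0.05 on a log axis of the 12 genes named as higher (left) and the 12 named as lower (right) in aged ISC, 1 point per library, blue for the 3 young and orange for the 3 aged libraries. By the rule of choice the 2 colours do not overlap in any row, and in *Ccr2*, *Epp13* and *Cd8a* 1 age lies at or near 0.

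The 12 genes named as lower in aged ISC were *Aldh4a1*, *Gzma*, *Ido1*, *Tmigd1*, *Slc28a2*, *Slc13a2*, *Adora2b*, *Cd8a*, *Pcdh20*, *Ric3*, *Nrn1* and *Cd7*, out of 222 that met the same rule. DESeq2, run on the same counts, called 12 of these 12, where 0.302% of all genes with an adjusted P were called lower. The 12 were chosen by a small P on these counts, so this is a description and no support. They are described in the order of what their products are known to do, which was not tested as a theme. Over both ages, 10 of the 12 were at least 2-fold more abundant in AE than in ISC. This held for 22.8% of all genes tested. The ISC mean in this ratio includes the aged libraries whose low values chose these genes. In young libraries alone, AE and ISC means were 2.21 and 2.11 CPM for *Cd7* and 1.96 and 1.51 CPM for *Cd8a*. They were 6.96 and 5.74 CPM for *Gzma* and 2.98 and 1.75 CPM for *Pcdh20*. *Aldh4a1*, *Ido1*, *Tmigd1*, *Slc28a2*, *Slc13a2* and *Adora2b* stayed more than 2-fold higher in AE. Of the 12, 9 belong to the genes that the study chose on these samples.

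Transporters, enzymes and an adhesion protein of the absorptive epithelium come first. *Aldh4a1*, the mitochondrial enzyme that completes proline breakdown (chr4:139622866-139649690, plus strand), stood at 7.21, 9.37 and 7.87 CPM in young and 2.12, 2.49 and 1.41 CPM in aged ISC, with a log2 fold change of -2.02 ± 0.29 with an edgeR FDR of 0.256 and an FDR of 0.0390 in the fit on all 4 groups. *Slc13a2*, the sodium-coupled citrate and dicarboxylate transporter of the brush border (chr11:78397087-78422217, minus strand), stood at 16.7, 18.2 and 15.7 against 2.89, 6.55 and 5.86 CPM. The young values of both genes lay close together, and the highest aged value was under 0.5 times the lowest young value. *Slc28a2*, a sodium-coupled nucleoside transporter (chr2:122426477-122461137, plus strand), stood at 5.22, 4.76 and 9.56 against 0.110, 0.570 and 1.23 CPM. *Tmigd1*, an adhesion protein of the epithelial brush border, stood at 7.95, 7.59 and 14.3 against 0.732, 0.855 and 2.64 CPM. The log2 fold change of *Slc28a2* was -3.50, and -2.82 without aged 1 or -4.52 without aged 5, and that of *Tmigd1* was -2.87, and -3.66 without aged 5. In these 2 genes young 3 was the highest young and aged 5 the highest aged library. The summed enterocyte markers described below stood at 6958 to 16074 CPM in young and 3145 to 9474 CPM in aged ISC, and their part in these differences was not tested.

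*Adora2b*, the low-affinity adenosine receptor of the epithelium (chr11:62248984-62266453, plus strand), had 1.91, 2.53 and 2.35 CPM in young and 0.220, 0.570 and 0.410 CPM in aged ISC. Its log2 fold change was -2.61 ± 0.45, with an edgeR FDR of 0.256, a DESeq2 FDR of 0.00744 and an FDR of 0.0131 in the fit on all 4 groups. *Ido1*, the interferon-inducible enzyme that starts tryptophan breakdown to kynurenine, had 28, 12 and 17 counts in young and 3, 3 and 2 counts in aged ISC. Its log2 fold change was -3.34 ± 0.60.

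Genes of T cells were *Gzma*, *Cd8a* and *Cd7*. *Gzma*, the cytotoxic protease granzyme A (chr13:113093825-113100981, minus strand), stood at 8.87, 4.76 and 3.60 CPM in young and 0.585, 0.712 and 0.293 CPM in aged ISC, with a log2 fold change of -3.41 ± 0.49 with an edgeR FDR of 0.256 and a DESeq2 FDR of 5.36e-07. *Cd8a*, a chain of the CD8 co-receptor (chr6:71373427-71379173, plus strand), had 35, 10 and 12 counts in young and 2, 1 and 0 counts in aged ISC. The ratio of aged to young counts was 0.0352, with a counting interval from 0.00705 to 0.108. *Cd7*, a T cell surface protein, had 46, 14 and 20 against 5, 3 and 0 counts. Young 1 held the highest value of each of the 3 genes, and without it the fitted log2 fold change moved from -4.65 to -3.81 for *Cd8a* and from -3.85 to -3.14 for *Cd7*.

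The remaining genes were *Pcdh20*, a protocadherin of homophilic cell adhesion, *Nrn1*, a membrane-anchored protein of neurite growth, and *Ric3*, a chaperone of acetylcholine receptors. *Nrn1* (chr13:36725361-36735131, minus strand) was the most abundant, with 24.4, 24.2 and 22.4 CPM in young and 8.60, 3.28 and 9.37 CPM in aged ISC, with a log2 fold change of -1.71 ± 0.32. *Ric3* had 3.81, 4.09 and 3.24 against 0.842, 1.14 and 1.17 CPM. *Pcdh20* had 8, 24 and 38 counts in young and 4, 0 and 0 counts in aged ISC, and its fitted log2 fold change of -4.56 was -7.65 without aged 1. *Nrn1* and *Ric3* were the 2 genes of the 12 that were less abundant in AE than in ISC.

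The lymphocyte genes were seen as a list as well. Of 12 T cell and intraepithelial lymphocyte markers, 9 had enough counts to be tested, 8 of these were lower in aged ISC and 5 had an unadjusted P under 0.05, beside 2.67% of all genes that were lower at that P. The median log2 fold change of the 9 was -3.18, against 0.01 over all genes, and the 1 member that was higher had 0.50. In AE, 7 of the same 9 were higher and 2 lower in aged libraries. The 5 members with an unadjusted P under 0.05 in ISC were *Cd8a*, *Ccl5*, *Gzmb*, *Nkg7* and *Cd3e*. Of these, *Cd8a* is also 1 of the 12 genes named as lower by their values in these libraries. Sparse markers such as *Cd8a*, with 57 young and 3 aged counts, reached the 10 counts needed for a test through the young libraries. The counts of members and the median are therefore a description and no support. *Ccl5*, a chemokine of activated T cells, stood at 5.14, 2.38 and 0.883 CPM in young and 0.0732, 0.356 and 0.586 CPM in aged ISC. *Gzmb*, granzyme B, stood at 5.39, 0.744 and 1.91 against 0.402, 0 and 0 CPM, and *Nkg7*, a cytotoxic granule protein, was at 0 in all 3 aged libraries. *Ptprc*, which encodes CD45 itself, had a log2 fold change of -0.98 with an interval from -2.13 to 0.18. The summed level of the 12 markers was 22.2, 9.60 and 9.49 CPM in young 1, 2 and 3 and 4.35, 5.98 and 4.34 CPM in aged 1, 3 and 5, so that the ages did not overlap in the sum. Without young 1 the median was -2.49 and without aged 1 it was -5.18. The crypt cells were gated as GFP-high single live cells, and no CD45 gate was set. The part of lymphocytes in these values was not tested. In bulk libraries, fewer cells of a type and less RNA per cell cannot be told apart.

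Enterocyte markers were lower in aged ISC in nearly the whole list, but with wide variation between libraries of 1 age. Of 23 markers tested, 22 were lower in aged ISC, 5 of them with an unadjusted P under 0.05 (*Krt20*, *Anpep*, *Lct*, *Apoc3* and *Slc6a19*), beside 2.67% of all genes, 0 were higher at that P and the smallest edgeR FDR was 0.967. In 6 of the 23 all aged libraries lay below the young ones, beside 4.19% of all genes. The median log2 fold change was -0.85. The summed level was 7222, 6958 and 16074 CPM in young 1, 2 and 3 and 3145, 9474 and 5591 CPM in aged 1, 3 and 5, so that aged 3 lay above young 1 and young 2. Young 3 held the highest sum of all and aged 1 the lowest. The median was -0.22 without young 3 and -1.43 without aged 3.

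*Krt20*, a keratin of differentiated epithelium, stood at 251, 191 and 326 CPM in young and 55.9, 166 and 141 CPM in aged ISC, and its groups did not overlap. *Lct*, the brush border lactase, stood at 183, 116 and 240 against 13.6, 69.4 and 72.6 CPM, a log2 fold change of -1.80 ± 0.65, also without overlap. In *Anpep*, *Apoc3* and *Slc6a19*, an aminopeptidase, an apolipoprotein and an amino acid transporter, aged 3 overlapped with the young libraries. *Sis*, sucrase-isomaltase, stood at 402, 491 and 906 CPM in young and 124, 848 and 530 CPM in aged ISC, with a log2 fold change of -0.26. The exception to the direction was *Mgam*, maltase-glucoamylase, with a log2 fold change of 0.13. Young 3 was the highest young library in every one of the 23 markers but *Slc5a1*, a glucose transporter.

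Because the enterocyte list lay on 1 side as a whole, the promoters of its members were searched for the recognition letters of transcription factors known from enterocytes. The windows ran from 250 bases before to 50 bases after the start of transcription in RefSeq (GRCm38.p6), and 21 of the 23 members matched 1 by symbol. Where a symbol had several starts, the window with the lowest coordinate was taken. It need not lie at the 5′ end of the counted gene. Motifs were searched on both strands. The HNF4 letters CAAAGTCCA were found in 2 of the 21 (9.52%) and in 0.496% of 27025 promoters, and a second form, CAAAGTTCA, in another 2 (9.52%) and in 0.396% of all. The 2 forms differ in 1 letter and cannot match at the same place. GATA letters AGATAAG were found in 1 of the 21 (4.76%, against 3.07% of all) and CDX2 letters TTTATTG in 2 (9.52%, against 4.83%). Of the 12 genes named as lower, 8 matched a promoter, and the CDX2 letters were in that of *Slc28a2* and none of the other motifs in any. Of the 12 named as higher, 11 matched, and the CDX2 letters were in that of *Ddr2*. This *Ddr2* window, chr1:170088895-170089194, lies inside the counted gene and away from its 5′ end at 170110762. The 4 promoters with HNF4 letters are printed 5′ to 3′ on the strand of the gene, with the motif in capitals in the orientation in which it lies.
*Alpi*, intestinal alkaline phosphatase, chr1:87101557-87101856, minus strand: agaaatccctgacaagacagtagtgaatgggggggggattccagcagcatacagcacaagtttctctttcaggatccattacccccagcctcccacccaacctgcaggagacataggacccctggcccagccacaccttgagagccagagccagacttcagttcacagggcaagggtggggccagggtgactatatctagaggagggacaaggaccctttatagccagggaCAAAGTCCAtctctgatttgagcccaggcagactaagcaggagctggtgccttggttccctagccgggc
*Treh*, trehalase, chr9:44672983-44673282, plus strand: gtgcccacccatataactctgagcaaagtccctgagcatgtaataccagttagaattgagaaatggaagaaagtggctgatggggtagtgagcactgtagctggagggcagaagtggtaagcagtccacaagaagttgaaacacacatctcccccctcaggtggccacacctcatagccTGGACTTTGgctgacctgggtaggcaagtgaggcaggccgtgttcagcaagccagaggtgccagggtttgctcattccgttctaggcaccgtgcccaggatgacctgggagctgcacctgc
*Apoa4*, apolipoprotein A-IV, chr9:46240594-46240893, plus strand: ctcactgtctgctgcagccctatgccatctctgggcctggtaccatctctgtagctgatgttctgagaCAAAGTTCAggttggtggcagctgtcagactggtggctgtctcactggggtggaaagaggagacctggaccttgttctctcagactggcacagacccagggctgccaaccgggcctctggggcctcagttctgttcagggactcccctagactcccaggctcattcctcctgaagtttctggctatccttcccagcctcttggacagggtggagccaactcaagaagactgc
*Rbp2*, a retinol-binding protein, chr9:98490287-98490586, plus strand: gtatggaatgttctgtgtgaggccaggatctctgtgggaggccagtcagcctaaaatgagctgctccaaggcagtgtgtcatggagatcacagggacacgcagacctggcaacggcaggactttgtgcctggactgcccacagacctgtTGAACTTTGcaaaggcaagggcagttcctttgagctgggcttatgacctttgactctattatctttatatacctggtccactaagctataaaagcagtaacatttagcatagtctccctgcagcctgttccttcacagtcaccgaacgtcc

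These 4 genes had log2 fold changes of -0.94 (*Alpi*), -1.75 (*Treh*), -1.97 (*Apoa4*) and -0.57 (*Rbp2*), and each had an unadjusted P above 0.05. *Apoa4* stood at 316, 361 and 1130 CPM in young and 61.3, 308 and 94.1 CPM in aged ISC, and *Rbp2* at 210, 246 and 721 against 96.6, 589 and 111 CPM. In both, young 3 and aged 3 were the highest libraries of their age, as in the summed list. The letters are a description of the windows and not a site of binding. Their shares depend on which genes are in the list and not on the age of the libraries, so they do not bear on the age difference.

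**Figure D3:**
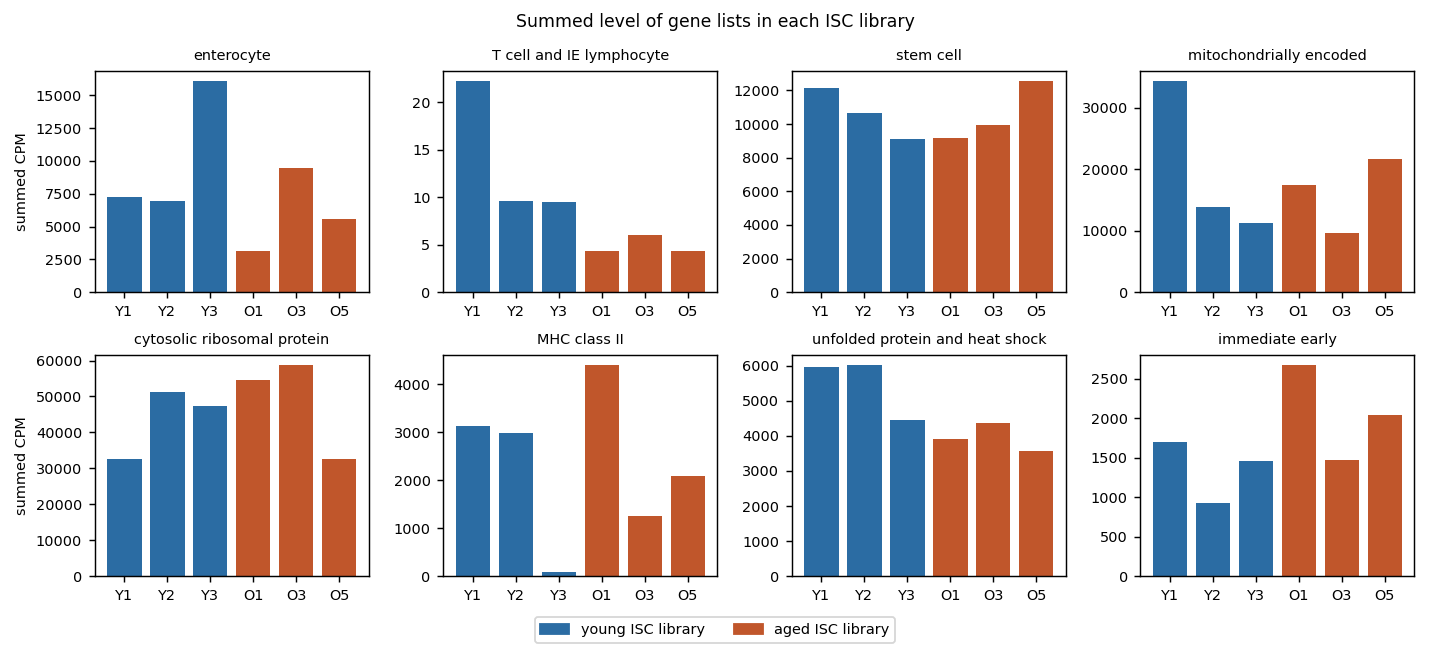
Summed CPM of 8 gene lists (y axis, from 0) in each ISC library (x axis), with blue bars for young 1, 2 and 3 and orange bars for aged 1, 3 and 5. Every aged bar lies below every young bar in the T cell and intraepithelial (IE) lymphocyte panel, at 4.34 to 5.98 against 9.49 to 22.2 CPM, and by a narrow margin in the unfolded protein and heat shock panel, at 3565 to 4375 against 4449 to 6010 CPM, while mitochondrially encoded and ribosomal protein sums group young 1 with aged 5.

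The other mature cell types showed less. Of 8 goblet cell markers, 5 were higher and 3 lower with a median of 0.14, and *Fcgbp*, a mucus protein, stood at 1900, 1516 and 1613 CPM in young and 1365, 1379 and 1163 CPM in aged ISC, with a log2 fold change of -0.36 ± 0.17. Of 13 enteroendocrine markers, 11 were higher with a median of 0.33, which was 0.03 without young 1. All 10 tuft cell markers were lower, but with a median of only -0.23 that was 0.06 without aged 5 and 0.03 without young 3, and no member's ages were apart. The 7 Paneth cell markers had a median of -0.09, and *Lyz1*, Paneth cell lysozyme, ranged from 272 to 1030 CPM in young and from 248 to 579 CPM in aged ISC. None of the members of these 4 lists had an unadjusted P under 0.05. Of 5 red blood cell markers, 4 were tested and 1, *Hbb-bs*, was lower at a P under 0.05 (2.67% of all genes), at 0.967 to 1.25 CPM in young and 0.117 to 0.570 CPM in aged ISC.

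Genes of the cell cycle were close to equal. Of 26 proliferation genes, 12 were higher and 14 lower with a median of -0.02, and 2 were lower at an unadjusted P under 0.05, beside 2.67% of all genes. These were *Mcm2* and *Mcm5*, subunits of the helicase that opens DNA for replication. *Mcm2* stood at 231, 226 and 174 CPM in young and 172, 134 and 166 CPM in aged ISC, with a log2 fold change of -0.42 ± 0.17. Of 16 cell cycle inhibitor and p53 genes tested, 8 were higher and 8 lower, 0 at that P, with a median of 0.01. *Cdkn1a*, the p21 inhibitor of cyclin-dependent kinases, stood at 52.0, 43.3 and 85.4 against 42.2, 48.1 and 35.8 CPM, and its 95% interval ran from -1.08 to 0.04. *Cdkn2d*, the p19 inhibitor of the same kinases, was higher in each aged library, at 8.70 to 10.4 CPM in young and 11.5 to 12.1 CPM in aged ISC.

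Wnt and Notch genes leaned to higher values by small amounts. Of 16 Wnt pathway genes, 10 were higher and 6 lower with a median of 0.08, and *Sp5* and *Wnt3* were higher at an unadjusted P under 0.05, beside 2.37% of all genes. *Sp5*, a transcription factor gene switched on by Wnt signals, stood at 32.9, 27 and 30.9 CPM in young and 39.7, 43.4 and 39.6 CPM in aged ISC, with a log2 fold change of 0.43 ± 0.15. *Wnt3*, the ligand that Paneth cells supply, stood at 4.47, 3.72 and 3.02 against 6.04, 6.05 and 5.33 CPM. *Ctnnb1*, which encodes the pathway's effector beta-catenin, had a log2 fold change of -0.17 and its libraries overlapped. Of 12 Notch pathway genes, 10 were higher with a median of 0.21, and the ligand *Jag1* stood at 17.6 to 19.3 CPM in young and 20.5 to 25.1 CPM in aged ISC. The 21 nutrient sensing, sirtuin and telomere genes had a median of 0.07 with 0 at that P. The Wnt median was -0.02 without young 3 and also without aged 5.

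Protein folding genes were lower in aged ISC in 12 of 13 cases, with a median of -0.43. Of these, 7 had an unadjusted P under 0.05, beside 2.67% of all genes, and the smallest edgeR FDR was 0.881. In AE the list had a median of -0.61. *Calr*, the calcium-binding chaperone of the endoplasmic reticulum, stood at 1076, 1002 and 967 CPM in young and 732, 778 and 753 CPM in aged ISC, with a log2 fold change of -0.43 ± 0.14. *Hsp90b1*, the endoplasmic reticulum Hsp90, stood at 1066, 959 and 887 against 732, 811 and 727 CPM. In both the ages were apart. *Hspa5* (BiP), *Hspa8*, *Pdia4* and *Hsph1* had overlapping ages. *Hsph1*, a heat-inducible Hsp110 chaperone, was high in only 2 libraries, at 495 and 491 CPM in young 1 and young 2, while young 3 had 115 CPM and the aged libraries 71.7 to 135 CPM. The 3 genes *Hsp90aa1*, *Stip1* and *Ahsa1*, outside the list and chosen after their values were seen, were also highest in young 1 and young 2: *Hsp90aa1* at 495, 459 and 264 CPM in young and 208, 247 and 213 CPM in aged ISC, *Stip1* at 351, 301 and 198 against 173, 170 and 152 CPM, and *Ahsa1* at 215, 213 and 160 against 134, 139 and 123 CPM. All 3 encode cytosolic Hsp90 or its co-chaperones.

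All 9 immediate early genes were higher in aged ISC, with a median of 0.59, and 2 had an unadjusted P under 0.05, beside 2.37% of all genes. *Ier2* stood at 263, 251 and 264 CPM in young and 439, 353 and 335 CPM in aged ISC, with a log2 fold change of 0.54 ± 0.15 with an edgeR FDR of 0.844. *Zfp36*, an RNA-binding protein that shortens the life of cytokine transcripts, stood at 209, 136 and 163 against 291, 197 and 279 CPM and overlapped. *Fos*, a subunit of the AP-1 factor, stood at 292, 139 and 330 against 531, 289 and 415 CPM. Genes of this class are switched on rapidly by growth factors and stress. Of the 9 genes, 1 had ages that were apart, *Ier2*, beside 4.81% of all genes with all aged libraries above.

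Immune response lists held few differences. Of 17 interferon response genes, 13 were lower with a median of -0.27, which was -0.02 without young 1. *Ifit1*, an inhibitor of viral translation, had the smallest P, at 4.23, 2.60 and 4.12 CPM in young and 1.10, 2.28 and 0.996 CPM in aged ISC. The 7 MHC class II genes all had positive log2 fold changes with a median of 0.32, yet the sum was 3126, 2985 and 82.1 CPM in young and 4391, 1253 and 2086 CPM in aged ISC. Young 3 thus held very little, and without aged 1 the median was -0.39. Of 18 inflammation genes, 10 were tested, 5 of them higher and 5 lower, and 1 was higher and 1 lower at an unadjusted P under 0.05, beside 2.37% and 2.67% of all genes: *Ccl20*, a chemokine for dendritic cells and lymphocytes, at 2.15, 1.49 and 0.441 against 2.89, 3.56 and 3.46 CPM, and *Ptgs2*, cyclooxygenase 2, at 0.521 CPM or less in every library.

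Of the core housekeeping lists, 73 of 77 cytosolic ribosomal protein genes were higher in aged ISC, by a median of 0.15 that was -0.02 without young 1, and 1 was higher at an unadjusted P under 0.05, beside 2.37% of all genes. Respiratory chain genes had a median of -0.02 over 87 genes and mitochondrially encoded genes of -0.23 over 12, the latter 0.40 without young 1. As given above, young 1 and aged 5 stood apart in the sums of ribosomal protein and mitochondrially encoded genes.

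**Figure D4:**
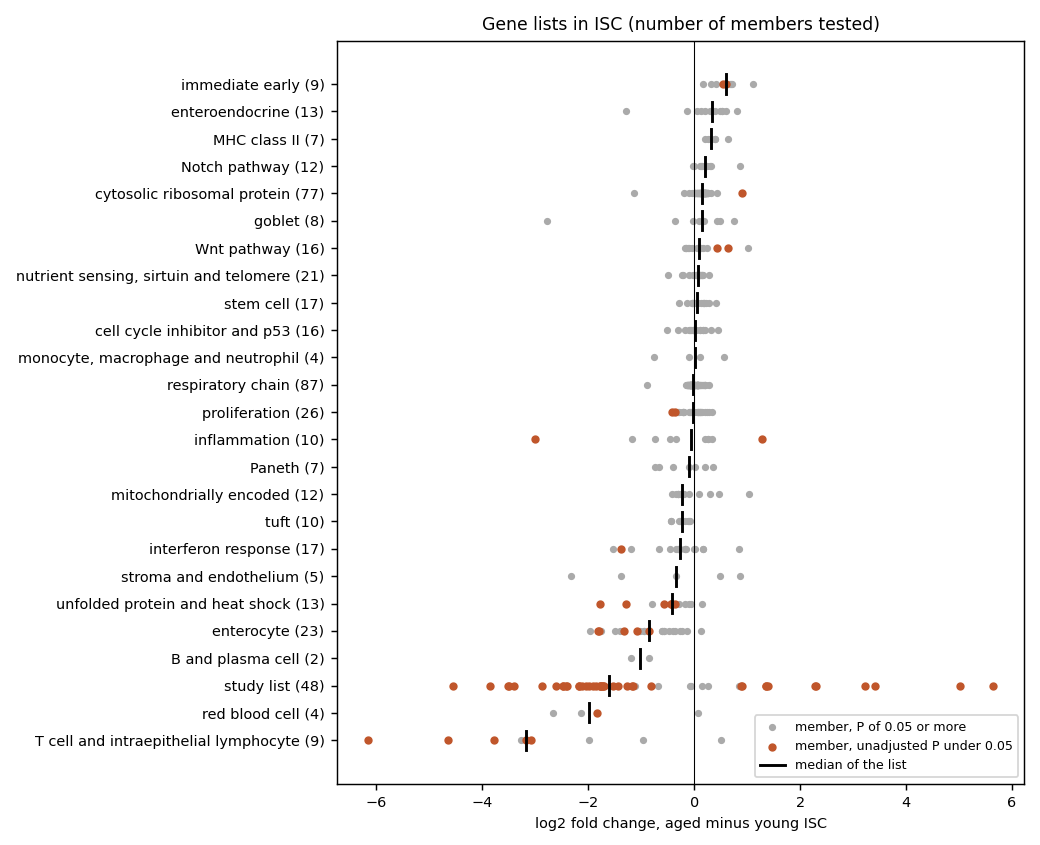
Log2 fold change between aged and young ISC (x axis) of the members tested of 25 gene lists (rows, number of members in brackets). Grey points had an unadjusted P of 0.05 or more and orange points a P under 0.05, and black bars are medians. The medians of the T cell (-3.18), red blood cell (-1.99), B and plasma cell (-1.03), enterocyte (-0.85) and unfolded protein (-0.43) lists lie below 0 and that of the immediate early list (0.59) above it, and the study list spreads far to both sides of 0, its members having been chosen on these samples.

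The 49 genes that the study chose on these samples, in ISC or in AE, were then followed as a list in ISC. Counts were analysed for 48 of them, and 14 were higher and 34 lower in aged ISC. An unadjusted P under 0.05 was found for 11 higher and 30 lower genes, beside 2.37% and 2.67% of all genes. An FDR under 0.05 was found for 0 by edgeR and for 37 by DESeq2, which called 0.0708% of all genes higher and 0.302% lower. As the list was chosen on the same libraries, these counts are no independent evidence of its direction. In 31 genes all aged libraries lay below and in 12 all lay above the young ones, beside 4.19% and 4.81% of all genes. The other 5, *Aspa*, *Ghrl*, *Nbl1*, *Socs3* and *Gcg*, overlapped. *Gcg*, which encodes glucagon and GLP-1, stood at 21.3, 14.3 and 53.3 CPM in young and 37.8, 30.9 and 37.1 CPM in aged ISC.

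The lower genes of the study list included genes of absorptive and mucus-forming epithelium, of which the following were chosen after their values were seen. *Pdzk1*, a scaffold of brush border transporters, stood at 33.5, 19.9 and 65.8 CPM in young and 3.84, 10.3 and 8.55 CPM in aged ISC. *Slc15a1*, the peptide transporter PEPT1, stood at 32.7, 26.6 and 49.9 against 6.40, 17.5 and 14.2 CPM, and *Gda*, guanine deaminase, at 124, 72.2 and 194 against 18.4, 47.0 and 38.8 CPM. Their order of libraries within each age was that of the enterocyte sum, with young 3 and aged 3 highest. *Clca1* and *Zg16* are secreted products of goblet cells, whose 8 listed markers had a median of 0.14, with 5 higher and 3 lower and 0 at an unadjusted P under 0.05. *Clca1* stood at 197, 95.5 and 153 against 44.4, 46.9 and 74.2 CPM, and *Zg16* at 233, 206 and 450 against 101, 140 and 126 CPM. In contrast to these genes, *Kbtbd11* varied little within an age, with 53.4, 42.9 and 52.0 against 26.1, 25.1 and 33.0 CPM. *Strc*, the hair cell protein stereocilin, had 3 counts over the young and 53 over the aged libraries, a ratio of 11.8 with a counting interval from 3.83 to 59.1.

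*Rps4l* was the member for which raw counts were not analysed here. Its level was read from the log2 values of the study's table of 49 genes, which the authors scaled to the 75th percentile of the libraries. At chr6:148354656-148355598 (GRCm38), a sequence related to the ribosomal protein gene *Rps4x*, it stood at 11.44, 11.78 and 11.72 in young 1, 2 and 3 and at 8.62, 7.19 and 6.86 in aged 1, 3 and 5. The ages did not overlap, and the difference of means was -4.09 on the log2 scale (11.65 ± 0.18 against 7.56 ± 0.94, SD, n = 3). An exact two-sided permutation test gave P = 0.1, the smallest that 3 against 3 libraries allow. The steps between the values of a library gave whole reads for 99.7% of the table's values, within 0.01 of a read or, for large values, 3e-06 of the value, which put *Rps4l* at 303, 431 and 428 reads in young and at 96, 19 and 18 reads in aged ISC. The authors counted uniquely mapped reads, so reads that match a near-identical copy equally well are not in this level, which is uncertain.

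Some differences belonged to part of the aged libraries only, and 2 such genes are given here after their values were seen. *Gdpd3*, a lysophospholipase D, stood at 3.40, 3.42 and 2.06 CPM in young ISC, at 2.82 CPM in aged 1 and at 33.8 and 50.2 CPM in aged 3 and 5. The AE libraries of the same codes had the same order, with 3.24 to 6.89 CPM in young AE, 5.03 CPM in aged 1 and 52.6 and 69.3 CPM in aged 3 and 5. In the ISC fit without aged 1, *Gdpd3* was the 1 gene called. *Grm4*, a metabotropic glutamate receptor, stood at 0.221 to 0.663 CPM in young ISC, at 0.476 CPM in aged 1 and at 9.54 and 21.7 CPM in aged 3 and 5. In AE it did not follow that order, with 5.32, 4.58 and 2.58 CPM in aged 1, 3 and 5.

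Whether the age difference of ISC was shared by AE was tested as the difference of the 2 age effects over all 12 libraries. Of 17377 genes, 1 was called by edgeR at an FDR under 0.05 (0.00575%), while 675 had an unadjusted P under 0.05. The gene was *Adora2b*, which in AE stood at 19.6, 22.3 and 23.3 CPM in young and 25.2, 27.5 and 29.6 CPM in aged libraries, whereas it was lower in every aged ISC library. The age effect in ISC minus that in AE was -2.92 ± 0.36 on the log2 scale, with an FDR of 0.0221, and it was not called without young ISC 2 or 3, aged ISC 1, young AE 1 or any of the aged AE libraries. Libraries of ISC and AE with the same code deviated together by a small amount, with correlations of 0.121 to 0.287. Correlations between different codes were not set beside these. When the code entered as a replicate block, 19 genes were called, in 19 of which the age effect was lower in ISC. They included 7 of the 12 genes named as lower and 0 of the 12 named as higher. As the named genes were chosen on the ISC libraries that enter this test, these counts are a description and no support. The largest of the 7 were *Cd8a* (-4.96, FDR 0.0398), *Cd7* (-4.20, FDR 0.0398), *Gzma* (-3.98, FDR 0.0195), *Ido1* (-3.55, FDR 0.0195) and *Slc28a2* (-3.54, FDR 0.00821). *Apoc2* and *Gm44805*, which are both among the 19, held the same counts in the ISC libraries and overlap, so they stand for 1 signal.

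Of the 12 genes named as lower in aged ISC, 9 were higher in aged AE, with log2 fold changes between 0.04 and 0.67. None of these 9 had an unadjusted edgeR P under 0.05 in AE, and their smallest FDR there was 0.844. *Gzma* stood at 13.1, 4.32 and 3.45 CPM in young AE and 16.8, 6.94 and 3.74 CPM in aged AE, with code 1 the highest at either age, and *Cd8a* at 3.41, 1.59 and 0.895 against 3.43, 2.08 and 0.998 CPM. *Slc28a2* stood at 40.5, 52.2 and 103 against 28, 55.9 and 121 CPM in AE, far above its level in ISC of either age. Of the 23 enterocyte markers, 23 were higher in aged AE, with a median log2 fold change of 0.34, while 22 were lower in aged ISC. With the replicate block, 0 of these 23 were called different between the cell types. In contrast, *Pcdh20*, *Ric3* and *Nrn1* were lower in aged libraries of both, with log2 fold changes of -3.76 ± 0.81, -2.08 ± 0.68 and -2.39 ± 0.58 in AE and an FDR of the difference of 1.00 each.

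Of the genes named as higher, 11 were tested in AE, and 8 of them were also higher in aged AE. The *Ccr2* level was 0.0609, 0.0635 and 0.173 CPM in young AE and 2.41, 2.01 and 1.66 CPM in aged AE, a log2 fold change of 3.82 ± 0.49, and again the ages were apart. *Ddr2* had 0, 0.508 and 0.183 against 2.77, 1.46 and 0.832 CPM, and *Cnpy1* had 17.2, 13.2 and 24.2 against 35.4, 31.2 and 51.5 CPM. In AE these genes had FDRs of 0.102, 0.844 and 0.844, and no difference between the cell types was called for them. *Extl1*, *Dlgap1* and *Nmnat2* were lower in aged AE, with log2 fold changes of -0.74 ± 0.47, -1.17 ± 0.72 and -2.79 ± 1.63, and these differences from ISC were not called either.

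**Figure D5:**
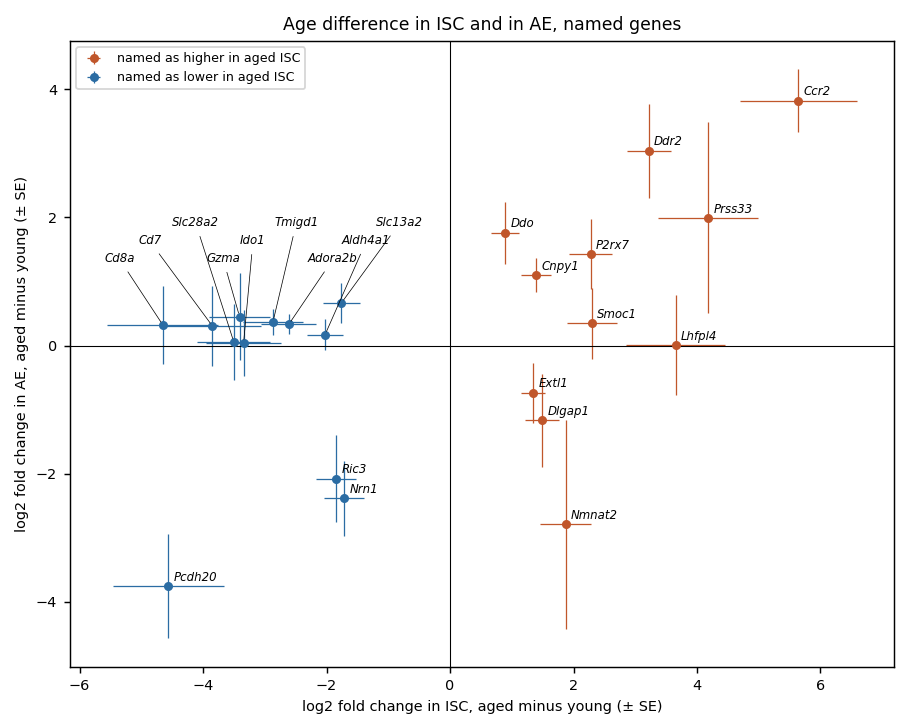
Log2 fold change between aged and young libraries in AE (y axis) against that in ISC (x axis) for the 23 named genes tested in both, each with its SE from edgeR. In AE, 9 of the genes named as lower in ISC lie above 0, between 0.04 and 0.67, *Pcdh20*, *Ric3* and *Nrn1* lie below 0 in both, and *Ccr2* and *Ddr2* lie above 0 in both.

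Genes with an unadjusted P under 0.05 were compared between the cell types in the same way. Of the 415 genes lower in aged ISC at an unadjusted P under 0.05, 57.8% were at least 2-fold more abundant in AE than in ISC, against 22.8% of all genes tested. Of the 369 higher genes, 42.3% were at least 2-fold more abundant in ISC, against 26.1% of all. In AE, 199 of the 313 higher genes that could be tested were higher in aged libraries (63.6%, against 46.4% of all 14723 genes tested in both), and 224 of the 398 lower genes were lower (56.3%, against 53.6% of all). The lower genes thus stood close to the background in AE. Of the 12 genes named as lower, 9 were higher there, none of these with an unadjusted edgeR P under 0.05 in AE. The median log2 fold changes were 1.12 in ISC and 0.17 in AE for the higher and -1.32 and -0.14 for the lower genes. These are descriptions of genes chosen by their values in ISC, and the aged ISC libraries also enter the ratios of AE to ISC.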

How the data were processed

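RNA of sorted ISC and AE was sequenced by the authors as 50 bp single-end reads of directional poly(A) libraries, made with 14 PCR cycles. Reads were trimmed with Trim Galore 0.4.4, mapped to GRCm38 with HISAT2 2.1.0 and, if uniquely mapped, counted per gene over exons in SeqMonk. The deposited values are raw counts of 34245 genes. The deposited log2 values of 49 genes were scaled to the 75th percentile by the authors and were used here only for *Rps4l*. The deposited −log10 FDR columns hold the authors' own comparisons and were not used. The tests were run with edgeR 4.0.16 under R 4.3.3 (TMM, robust quasi-likelihood test, Benjamini-Hochberg adjustment, FDR threshold 0.05, at least 10 counts in total) and DESeq2 1.42.0. The edgeR steps were tested on simulated data. Columns were grouped by their codes. Replicates of a code in ISC and AE deviated together from their group means, with correlations of 0.121 to 0.287 over 6 codes, and different codes were not compared. The pairing comes from that check and the shared code, as the labels do not tie a code to a mouse. Members, gene lists and motifs were chosen with earlier results of these data known. Named genes were the 12 higher and 12 lower genes with the smallest P among genes whose libraries did not overlap, with a mean of at least 1 CPM at 1 age and a name that is not a Gm number or Rik clone, besides *Lgr5* and *Olfm4*, of each list the members with P under 0.05 (at least the 3 with the smallest P, at most 6), and *Ccr2*, *P2rx7*, *Ddr2*, *Ddo*, *Cnpy1* and *Rps4l*. Other genes were named after their values were seen, among them *Ascl2*, *Ptprc*, *Sis*, *Mgam*, *Slc5a1*, *Apoc2*, *Gm44805*, the 5 overlapping genes of the study list and the members whose promoters are printed. Ratios of genes with 3 counts or fewer at 1 age were given with exact 95% counting intervals, and such intervals cover counting error only. PCR duplicates cannot be told from independent molecules. Depth was 11893817 to 26796461 counts per ISC library, at which 3 counts correspond to 0.110 to 0.249 CPM. Alternatives were other scaling, filters and fits, and leaving out libraries.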

Additional observations from a re-analysis of the deposited data

Results flagged for a closer look

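In the edgeR fit without the replicate block, *Adora2b* was the 1 gene called for a difference of age effects between ISC and AE, while 19 genes were called with the block and 43 by DESeq2. The age effect in ISC minus that in AE was -2.92 on the log2 scale (edgeR FDR 0.0221), and it was lower in 3 of 3 aged ISC libraries and higher in 3 of 3 aged AE libraries. *Adora2b* was among those called with the block, with an FDR of 0.0315. Groups of 3 libraries are too small to flag a single library as far from the others.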

How the results depend on the processing

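The count of genes called between aged and young ISC depended on the test: 0 by edgeR, 58 by DESeq2, 1 (*Ddr2*) when all genes with at least 1 count were tested and 3 (*Aldh4a1*, *Ccr2*, *Adora2b*) in a fit on all 4 groups, and 0 to 1 when a library was left out (1 without aged 1). Genes at an unadjusted P under 0.05 numbered 203 to 486 higher and 275 to 527 lower without 1 library, the fewest without young 2 (203 higher) and young 1 (275 lower), and 233 were higher without aged 1. Leaving out young 1 with aged 5, or young 3 with aged 3, chosen after the data were seen, called 0 genes. The difference of age effects called 1 gene, 19 with the replicate block, 43 by DESeq2 and 0 to 3 without 1 library (3 without aged ISC 5, 2 without young AE 2 or 3). It was 0 without young ISC 2 or 3, aged ISC 1, young AE 1 or any aged AE library. The 24 named genes, chosen for ages that did not overlap, kept their sign by that choice. *Olfm4* turned, at 0.06 without young 1 and 0.10 without aged 1, within -0.23 to 0.10 over the libraries left out. The stem cell and proliferation medians moved by less than the spread between libraries, from -0.02 to 0.24 and from -0.06 to 0.07, and the enterocyte median lay between -1.43 and -0.22. *Rps4l* differed by -4.07 from recovered reads scaled to library totals. The causes were not tested. At this depth genes under 1 CPM could not be limited to within 2-fold.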
